A study of Mus musculus with 7 samples.

Results

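The genes described here encode the subunits of the transcription factor NF-kB and its inhibitors, 10 genes taken by symbol from the 55401 genes of the count table: Nfkb1, Rela, Rel, Nfkb2, Relb, Nfkbia, Nfkbie, Nfkbiz, Bcl3 and Tnfaip3. Each symbol matched 1 row, and all 10 passed the filter on low counts. RNA was sequenced from dorsal hippocampal cells of C57BL/6 mice, described as adult males of 6 to 8 weeks, after enrichment of microglia on CD11b beads. Both groups carried AAV-RAM-Cre, injected into the dorsal dentate gyrus, whose activity-dependent promoter drives Cre recombinase in neurons activated by an experience (engram neurons). In the EYFP group (4 libraries) the second virus was AAV-Dio-EYFP, coding for a fluorescent protein. In the ATG7 group (3 libraries) it was AAV-Dio-Atg7-Flag, so that Atg7, a gene required for autophagy, was overexpressed in neurons and not in the microglia that were sequenced. Means below are given ± SD with n = 4 EYFP and n = 3 ATG7 libraries. The comparison asks how microglial NF-kB genes differ when the engram neurons carry extra Atg7.

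NF-kB factors are dimers of Rel-family proteins that wait in the cytoplasm, bound to inhibitors of the IkB family. In the canonical arm, signals from Toll-like, interleukin-1 and tumour necrosis factor receptors activate the IKK kinases, IkB is degraded, and p50 (from Nfkb1) with RelA or c-Rel enters the nucleus. In the non-canonical arm, receptors such as CD40 and the lymphotoxin beta receptor stabilise the kinase NIK (Map3k14), the precursor p100 (from Nfkb2) is cut to p52, and p52 enters with RelB. Several of these genes are themselves NF-kB targets, which gives the pathway feedback in microglia as in other myeloid cells. Transcript counts report none of the steps that act on protein, namely IkB degradation, p100 cutting and nuclear entry.

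Total counts ranged from 35934210 to 55217119 per library. Levels are given in CPM, counts scaled to a common library total with TMM factors (the trimmed mean of M values), and 3 counts corresponded to 0.0543 to 0.0835 CPM before TMM. EYFP 3 had 938.5 CPM of Xist, the transcript of the inactive X chromosome, and the other libraries 0.151 to 0.574 CPM, although the mice are described as male. Results for the members are therefore also given without EYFP 3. Defining microglia genes such as Csf1r (6383 ± 643.0 CPM in EYFP) were abundant, and so was the choroid plexus gene Ttr (38948 ± 4619 CPM), so the libraries were not microglia alone. Atg7 itself stood at 35.6 ± 1.68 CPM in EYFP against 34.9 ± 2.76 CPM in ATG7, and does not check the labels, since the overexpression was in neurons.

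Of the 10 genes, Bcl3 and Nfkb2 rose in ATG7 and none fell. The group mean of Bcl3 was 2.02 times higher in ATG7, and that of Nfkb2 was 1.47 times higher. Relb, the partner of p52, was 1.42 times higher in mean without passing the test. Rela and Nfkbia, the main canonical subunit and its main inhibitor, had group means 0.663% and 1.36% higher in ATG7. These 2 of 10 stand beside 0.755% of the 19199 genes tested (edgeR quasi-likelihood test, adjusted p under 0.05, two-sided). Of all genes tested, 0.688% were higher and 0.0677% lower in ATG7. The 10 genes were chosen with earlier results of these data known. In 3 of the 10 (Nfkb2, Relb and Bcl3) the ATG7 libraries did not overlap the EYFP libraries, against 11.2% of all genes tested. All 10 estimates were above 0, against 49.2% of all genes. Their median log2 fold change was 0.29, and that of all genes tested was -0.00365. Both calls were lost when EYFP 4, ATG7 2 or ATG7 3 was left out, and that of Nfkb2 also without EYFP 2 or EYFP 3 (values with each gene). Without EYFP 3, Bcl3 was the member that passed. The 7 members other than Bcl3, Nfkb2 and Relb then had log2 fold changes from 0.03 (Rela) to 0.34 (Tnfaip3), with Nfkbia at 0.09 (edgeR adjusted p from 0.274 to 0.927).

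**Figure D1:**
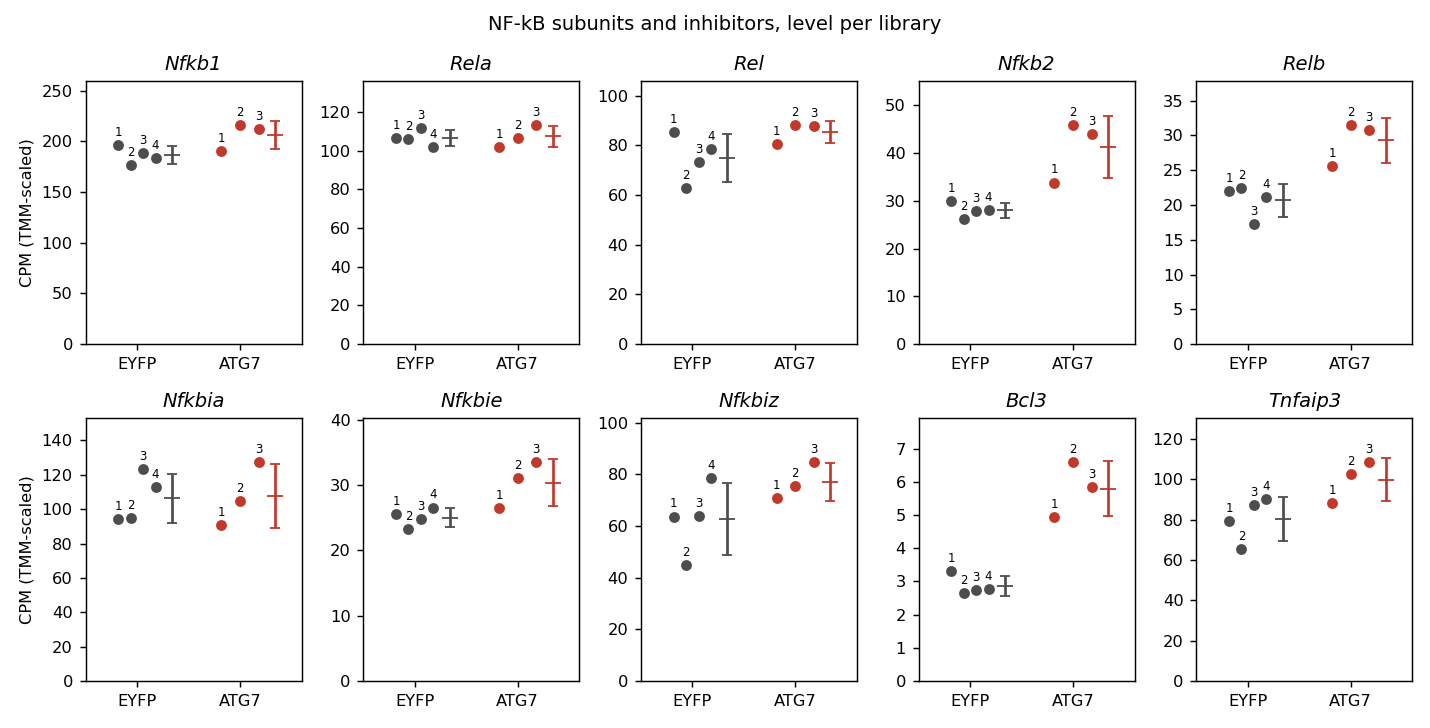
Level of each of the 10 genes in every library, in CPM with TMM factors. Points are libraries numbered by replicate, and the bars beside them give the mean and SD (n = 4 and n = 3). ATG7 points lie above all EYFP points for Nfkb2, Relb and Bcl3, and overlap them for the other 7 genes.

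Several of these genes are known NF-kB targets, and their promoters are shown for that reason. RefSeq promoter windows (GRCm38.p6) run from 250 bases before to 50 bases after a start site, and 7 of the 10 genes had at least 1 window. The windows were searched on both strands for the kappa-B consensus, a motif of 10 bases, and overlapping matches were counted separately. At least 1 match was present in 6 of these 7 genes (Bcl3, Nfkb2, Nfkbia, Nfkbie, Rel and Tnfaip3), whereas 5.14% of the 27025 genes with a window had one. Among single windows, 4.51% of 32851 held a match and 0.554% held 2 or more. The window of Rela held no match. The first window of Nfkb2 (chr19:46304487-46304786, plus strand) held 3 matches, of which 2 overlap. The windows of the other two Nfkb2 starts overlap each other and share a match, GGGACTTTCC, and 1 of them holds a further match. Bcl3 (chr7:19822706-19823005, minus strand) and Nfkbia (chr12:55492598-55492897, minus strand) held 1 each. The sequences of 2 genes that rose and of 1 that did not are shown 5′ to 3′ in the direction of transcription, with matches in capitals.
Bcl3: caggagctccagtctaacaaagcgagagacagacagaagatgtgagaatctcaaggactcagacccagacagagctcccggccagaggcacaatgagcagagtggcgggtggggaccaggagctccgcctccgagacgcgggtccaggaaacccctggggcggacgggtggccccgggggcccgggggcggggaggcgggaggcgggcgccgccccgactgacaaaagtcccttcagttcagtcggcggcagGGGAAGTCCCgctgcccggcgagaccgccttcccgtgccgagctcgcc
Nfkb2: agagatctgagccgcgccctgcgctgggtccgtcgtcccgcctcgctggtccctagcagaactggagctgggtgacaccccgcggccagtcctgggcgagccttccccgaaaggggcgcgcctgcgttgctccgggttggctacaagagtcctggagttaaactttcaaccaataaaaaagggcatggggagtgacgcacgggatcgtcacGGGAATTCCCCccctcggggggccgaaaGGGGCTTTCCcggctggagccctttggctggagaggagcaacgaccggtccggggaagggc
Nfkbia: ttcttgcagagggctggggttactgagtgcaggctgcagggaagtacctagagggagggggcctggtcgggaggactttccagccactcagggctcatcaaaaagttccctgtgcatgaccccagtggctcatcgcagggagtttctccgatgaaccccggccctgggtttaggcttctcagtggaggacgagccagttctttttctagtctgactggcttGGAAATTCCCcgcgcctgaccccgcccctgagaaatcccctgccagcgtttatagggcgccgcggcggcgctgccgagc
A match was thus present both in genes that rose and in Nfkbia, whose level did not separate the groups. A match describes letters in a window and was not tied to binding of any factor in these cells.

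**Figure D2:**
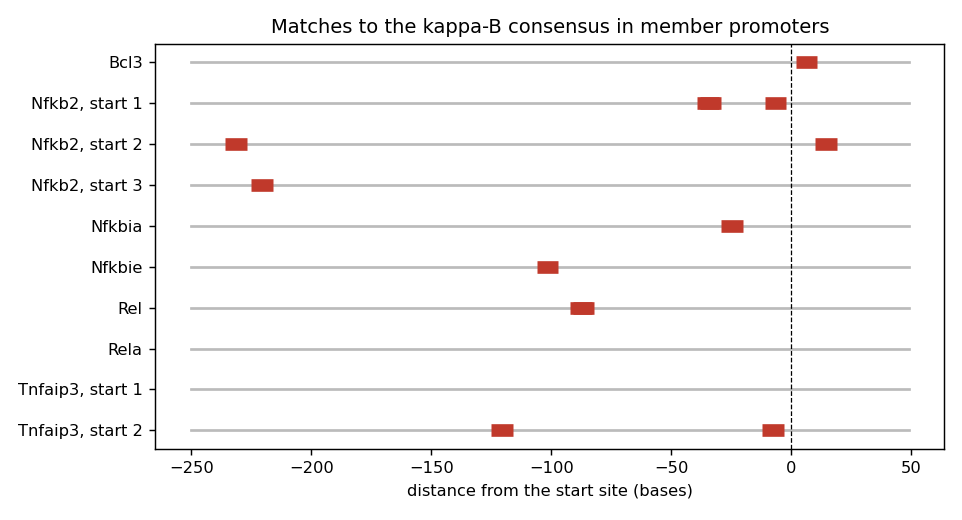
Position of kappa-B consensus matches (red) in the 10 promoter windows of 7 genes, by distance in bases from the start site (dashed line). Windows span 250 bases before to 50 bases after the start, 8 of the 10 held a match, and the 3 windows of Nfkb2 and 2 of Tnfaip3 belong to different start sites.

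None of the 3 canonical subunits passed the edgeR test, and none had an unadjusted p under 0.05 or passed with DESeq2 or limma-voom. Nfkb1 encodes p105, the precursor of p50. It stood at 196.8, 176.3, 188.5 and 183.8 CPM in the 4 EYFP libraries, in replicate order, and at 190.6, 216.2 and 211.9 CPM in the 3 ATG7 libraries. ATG7 1 lay inside the EYFP range and the other two ATG7 libraries above it. Its log2 fold change was 0.15, with a standard error (SE) of 0.0762 and an edgeR adjusted p of 0.496. Rela encodes p65, which carries the main transactivation domain of the canonical dimer. Its values were 106.5, 106.2, 111.8 and 101.9 CPM in EYFP and 102.0, 106.6 and 113.2 CPM in ATG7, so that the groups covered the same range. For Rela the log2 fold change was 0.01 (SE 0.0686, edgeR adjusted p = 0.977), with a 95% interval from 9.34% lower, or -0.14 on the log2 scale, to 11.8% higher. Rel, which encodes c-Rel, ranged from 62.7 to 85.4 CPM in EYFP and from 80.4 to 88.2 CPM in ATG7, with EYFP 2 the lowest library. Its log2 fold change was 0.19 (SE 0.0970, edgeR adjusted p = 0.487).

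Of the 2 non-canonical subunits, Nfkb2 rose. Nfkb2 (ENSMUSG00000025225, chromosome 19, 46304320 to 46312385, plus strand, GRCm38) encodes p100, which is both the precursor of p52 and an inhibitor of RelB. It stood at 29.9, 26.2, 27.8 and 28.1 CPM across EYFP and at 33.8, 45.9 and 44.0 CPM across ATG7. The EYFP libraries were close together, with a coefficient of variation of 5.53%, and the ATG7 libraries were spread more widely, at 15.7%. On the log2 scale Nfkb2 rose by 0.56 (SE 0.104, 95% interval 0.33 to 0.79, edgeR adjusted p = 0.0354). The edgeR adjusted p was 0.0704 without EYFP 2, 0.0720 without EYFP 3, 0.112 without EYFP 4, 0.186 without ATG7 2 and 0.188 without ATG7 3. Nfkb2 shares 299 exonic bases with Psd and 531 with the long non-coding RNA AC114539.1, each on the opposite strand, and the strand setting of the counting is not given in the sources used here. Psd averaged 11.7 CPM in EYFP and 10.8 CPM in ATG7, and AC114539.1 averaged 4.63 and 4.97 CPM, while the mean of Nfkb2 went from 28.0 ± 1.55 CPM to 41.2 ± 6.48 CPM.

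Relb (ENSMUSG00000002983, chromosome 7, 19606217 to 19629438, minus strand) encodes the subunit that pairs with p52. Its values were 22.0, 22.4, 17.2 and 21.1 CPM in EYFP and 25.6, 31.5 and 30.8 CPM in ATG7. Every ATG7 library was above every EYFP library, and EYFP 3 was the lowest. Relb had a log2 fold change of 0.50 (SE 0.110, edgeR adjusted p = 0.0761), and of 0.42 without EYFP 3 (adjusted p = 0.113). With no filter on low counts, where 0.9% of genes passed, the adjusted p of Relb was 0.00791, and with the DESeq2 Wald test, where 3.61% passed, it was 0.00443. The difference between the log2 fold changes of Relb and Nfkb2 was not tested.

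**Figure D3:**
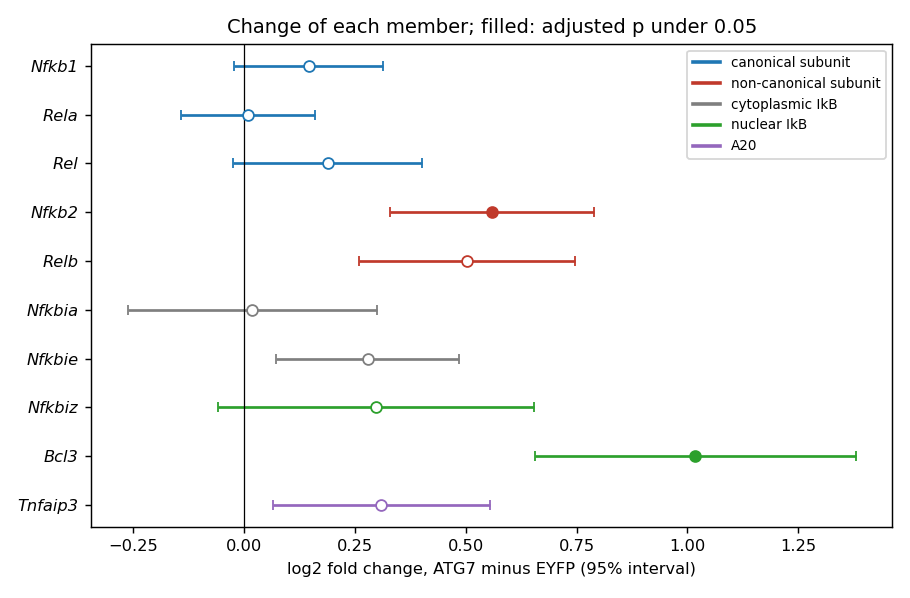
Log2 fold change of each gene, ATG7 minus EYFP, with its 95% interval from the edgeR fit on 7 libraries. Colours give the role, filled points passed at an adjusted p under 0.05 (Nfkb2 at 0.56 and Bcl3 at 1.02), and the vertical line marks no change.

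The contrast of the arms was tested with ratios of 2 genes within each library, which do not depend on how libraries are scaled. Counts of Nfkb2 were 15.2%, 14.8%, 14.7% and 15.3% of those of Nfkb1 across EYFP, and 17.8%, 21.2% and 20.7% across ATG7. Counts of Relb were 20.6%, 21.1%, 15.4% and 20.7% of those of Rela across EYFP, and 25.05%, 29.6% and 27.2% in ATG7. Neither ratio overlapped between the groups. The log2 ratio of Nfkb2 to Nfkb1 averaged -2.73 ± 0.0266 in EYFP against -2.33 ± 0.140 in ATG7, which differ by 0.40. For Relb to Rela it averaged -2.37 ± 0.219 against -1.88 ± 0.119, which differ by 0.49, or by 0.38 without EYFP 3 (0.39 for Nfkb2 to Nfkb1 without it). Each gave an exact permutation p of 0.0286, two-sided over 35 splits and 0.0286 after adjustment over the 2 ratios, the smallest that 4 against 3 libraries allow. The genes of these ratios were chosen with the rise of Nfkb2 known, so the p restates that the groups do not overlap.

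**Figure D4:**
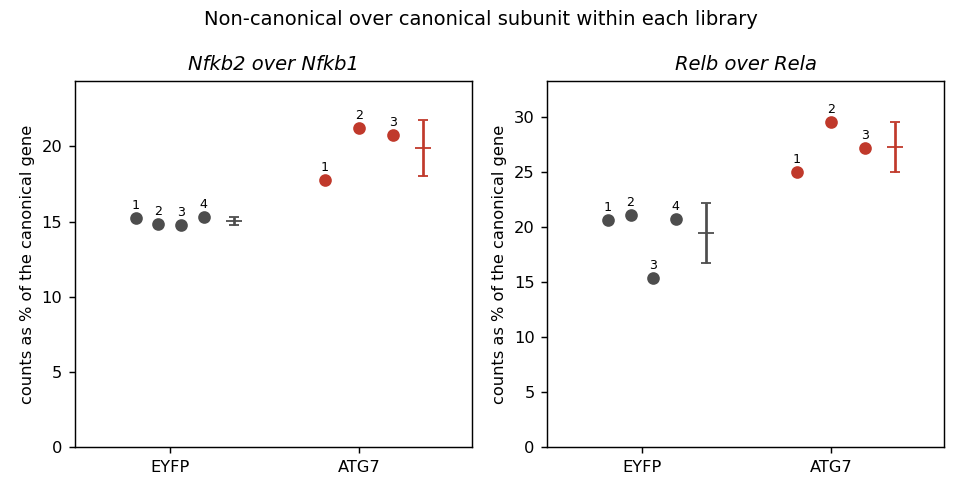
Counts of the non-canonical subunit as a percentage of its canonical counterpart within each library (numbered points), with mean and SD beside them (n = 4 and n = 3). Nfkb2 over Nfkb1 lies between 14.7% and 15.3% in EYFP and between 17.8% and 21.2% in ATG7, and Relb over Rela between 15.4% and 21.1% and between 25.05% and 29.6%.

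Among the inhibitors, Bcl3 rose and the others did not pass. Bcl3 (ENSMUSG00000053175, chromosome 7, 19808462 to 19822770, minus strand) encodes a nuclear IkB protein that binds p50 and p52 dimers on DNA and can activate or repress their targets. It stood at 3.31, 2.66, 2.73 and 2.77 CPM across EYFP and at 4.95, 6.61 and 5.83 CPM across ATG7, so that the lowest ATG7 library was well above the highest EYFP library. These levels rested on 113 to 363 counts per library. On the log2 scale Bcl3 rose by 1.02 (SE 0.164, 95% interval 0.66 to 1.38, edgeR adjusted p = 0.0206). The edgeR adjusted p was 0.0411 without EYFP 3, 0.0803 without EYFP 4, 0.109 without ATG7 2 and 0.114 without ATG7 3, while the log2 fold change stayed between 0.91 and 1.12 over the 16 alternatives tried. Its antisense neighbour Gm16175 shares 161 exonic bases with it and averaged 1.29 counts per library.

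Nfkbiz encodes IkB-zeta, the other nuclear IkB protein measured, which is needed for a set of late inflammatory genes. It ranged from 44.7 to 78.7 CPM in EYFP and from 70.7 to 84.9 CPM in ATG7, with EYFP 2 far below the others. Nfkbiz had a log2 fold change of 0.30 (SE 0.158, edgeR adjusted p = 0.514). Nfkbia encodes IkB-alpha, the inhibitor that holds the canonical dimer in the cytoplasm and is resynthesised within the feedback loop. Its values were 94.3, 94.8, 123.2 and 112.7 CPM in EYFP and 90.7, 104.7 and 127.7 CPM in ATG7, which contained both the lowest and the highest of the 7 libraries. The log2 fold change of Nfkbia was 0.02 (SE 0.127, 95% interval -0.26 to 0.30, edgeR adjusted p = 0.9746).

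Nfkbie encodes IkB-epsilon, a slower inhibitor of canonical dimers. It ranged from 23.2 to 26.6 CPM in EYFP and from 26.5 to 33.6 CPM in ATG7, where ATG7 1 touched the EYFP range. Nfkbie had a log2 fold change of 0.28 (SE 0.0937, edgeR adjusted p = 0.254). Tnfaip3 encodes A20, a ubiquitin-editing enzyme that ends canonical signalling upstream of IKK. It ranged from 65.7 to 90.2 CPM in EYFP and from 88.1 to 108.8 CPM in ATG7, a log2 fold change of 0.31 (SE 0.111, edgeR adjusted p = 0.286).

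Levels were compared between genes per kilobase of the principal transcript. In EYFP, Nfkbia was highest at 67.3 ± 8.98 CPM per kilobase, followed by Nfkb1 at 45.3 ± 2.09 and Rela at 39.2 ± 1.49, and these 3 did not overlap with one another. Tnfaip3 (18.2 ± 2.47), Nfkbiz (15.2 ± 3.38), Nfkbie (10.3 ± 0.576), Rel (10.04 ± 1.28), Relb (9.36 ± 1.08) and Nfkb2 (8.92 ± 0.493) followed, each overlapping with the next in order. Bcl3 was lowest, at 1.55 ± 0.160 CPM per kilobase. In ATG7 the order of means was kept except that Relb (13.3 ± 1.47) and Nfkb2 (13.1 ± 2.06) moved to places 6 and 7, ahead of Nfkbie (12.5 ± 1.48) and Rel (11.4 ± 0.583). The ATG7 ranges of Relb, Nfkb2, Nfkbie and Rel overlapped with one another, so their order was not resolved. The order depends on transcript length: over all annotated exons, Nfkb1 was below Rela, at 15.5 CPM per kilobase in EYFP.

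The libraries of 1 group differed in the same way across many of these genes. ATG7 1 was the lowest of the 3 ATG7 libraries in 10 of 10 genes, whereas 35.04% of all genes tested had their lowest ATG7 value there. EYFP 2 was the lowest EYFP library in 7 of 10, against 31.5% of all genes. ATG7 1 also had the lowest sum of the 8 microglia markers of the 7 libraries, at 18965 CPM, against 22786 and 23365 CPM in the other ATG7 libraries. In EYFP that sum ran from 19058 CPM, in EYFP 2, to 23084 CPM. With libraries scaled to that sum, an alternative added after seeing the data, the log2 fold change was 0.95 for Bcl3 and 0.49 for Nfkb2, and both calls were lost (edgeR adjusted p = 0.0612 and 0.122). In bulk libraries of this kind, fewer cells of a type and less RNA per cell cannot be told apart.

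The other genes of the pathway were taken from lists. In the 6 lists together, 79 of 86 genes were tested, 2 rose and none fell, with a median log2 fold change of 0.12 (27 had an unadjusted p under 0.05, against 2300 of the 19199 genes tested). The share called among all genes was 0.755%. The DESeq2 Wald test called 10 higher, against 3.61% of all genes in either direction, and limma-voom 4, against 1.08%. Among 10 canonical ligands and receptors none of the 10 tested passed (4 at an unadjusted p under 0.05), with a median of 0.17, and DESeq2 called Il1a and Il1b. The log2 fold changes in that list ran from -0.03 to 1.45. Il1a, the gene of interleukin-1 alpha, had the smallest p there, with 48.6 ± 5.37 CPM in EYFP against 62.8 ± 5.73 CPM in ATG7 (log2 fold change 0.37, edgeR adjusted p = 0.131). With no filter on low counts, where 0.9% of genes passed, the edgeR adjusted p of Il1a was 0.0319. Among 20 canonical adaptors and kinases none passed with any of the 3 tools (5 at an unadjusted edgeR p under 0.05, median 0.07). Irak4, a kinase below interleukin-1 and Toll-like receptors, had the smallest p (0.23, adjusted p = 0.188). The kinase subunits Chuk (IKK-alpha), Ikbkb (IKK-beta) and Ikbkg (NEMO) had log2 fold changes of 0.03, 0.25 and -0.02 (edgeR adjusted p = 0.914, 0.375 and 0.948).

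None of the upstream genes of the non-canonical arm passed with the main edgeR fit or limma-voom either, while DESeq2 called Cd40 and Tnfsf13b. With no filter on low counts, where 0.9% of genes passed, the edgeR adjusted p of Tnfsf13b was 0.0396. Of 13 ligands and receptors, 9 were tested, with a median log2 fold change of 0.11 and 3 at an unadjusted p under 0.05, and Lta, Tnfsf11, Cd40lg and Tnfrsf13c were too low to be tested. The log2 fold changes of the 9 ran from -0.05 to 0.86. Tnfsf13b, the gene of the ligand BAFF, had the smallest p, with 15.2 ± 2.02 CPM in EYFP against 20.99 ± 2.33 CPM in ATG7 (0.46, edgeR adjusted p = 0.137). Cd40, chosen here after its values were seen, stood between 2.55 and 4.75 CPM in EYFP and between 4.80 and 7.76 CPM in ATG7 (0.86, adjusted p = 0.152). Of the 6 adaptors and kinases none passed with any tool (2 at an unadjusted edgeR p under 0.05, median 0.11). Map3k14, the gene of NIK, had a log2 fold change of 0.10 (SE 0.0967), and Traf2 and Traf3, whose products lead to its degradation, had 0.12 and 0.07. Birc2 and Birc3, which encode the ubiquitin ligases of that complex, had 0.18 and 0.30. The edgeR adjusted p of these 5 genes lay between 0.221 and 0.825.

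Of 16 other inhibitors and regulators none passed with any tool (2 at an unadjusted edgeR p under 0.05, median log2 fold change 0.07). Zc3h12a, which encodes the RNase Regnase-1, had the smallest p (0.32, edgeR adjusted p = 0.194). Of 26 textbook NF-kB targets, 23 were tested, 2 rose (0.688% of all genes were called higher) and none fell, with a median of 0.46. DESeq2 called 8 of them higher and limma-voom 4, against 3.61% and 1.08% of all genes in either direction. The lists share genes: Il1b and Tnfsf13b, among those 8, are the same genes called in the ligand lists above. Csf1, a growth factor of microglia, rose by 0.61 on the log2 scale (SE 0.0757, edgeR adjusted p = 0.00705), a call lost with libraries scaled to microglia markers (0.106). Il12b, the gene of the p40 cytokine subunit, rose by 1.70 (SE 0.304, adjusted p = 0.0293), its mean going from 0.595 ± 0.217 CPM in EYFP to 1.92 ± 0.199 CPM in ATG7. The call of Il12b was lost with that scaling (0.0854) and without EYFP 4 (0.107), ATG7 1 (0.0606), ATG7 2 (0.140) or ATG7 3 (0.143). The ATG7 libraries lay above all EYFP libraries in 12 of the 23 targets, against 6.33% of all genes tested. Several targets are also induced by interferons, and in the interferon response list 10 of 20 genes rose, against 0.688% of all genes, and none fell (median 1.44). The groups did not overlap in any of the 20, and DESeq2 called 20 and limma-voom 13. The list had a summed level of 375.8 to 721.4 CPM in EYFP and 1063 to 1430 CPM in ATG7. Among its genes, Stat2, Bst2 and Isg15 rose by 0.93, 0.86 and 1.52 on the log2 scale. Each of these calls was lost without EYFP 4, ATG7 2 or ATG7 3, and those of Stat2 and Isg15 also without EYFP 2 (edgeR adjusted p from 0.0509 to 0.0942). Isg15 also missed the threshold with no filter on low counts (0.0591), and Bst2 with libraries scaled to microglia markers (0.0631). The part of interferon signalling in the levels of the NF-kB genes was not tested.

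**Figure D5:**
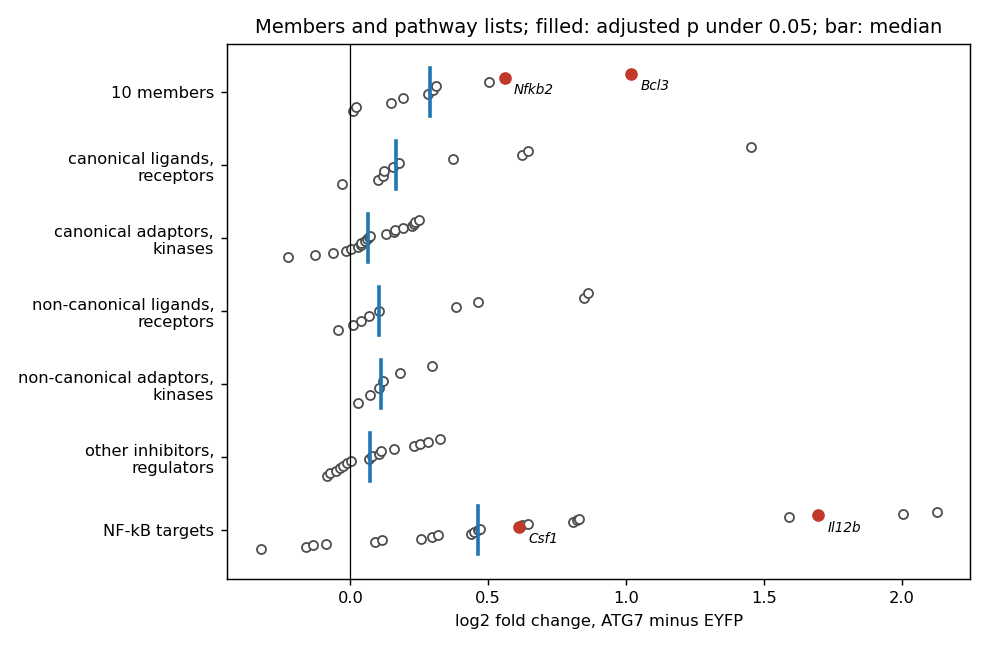
Log2 fold change, ATG7 minus EYFP, of the 10 genes and of 6 pathway lists, 1 point per gene tested, with the median of each list as a blue bar. Filled points passed at an adjusted p under 0.05 (Nfkb2, Bcl3, Csf1 and Il12b), and medians run from 0.07 to 0.46 in the lists and reach 0.29 in the 10 genes.

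The profile of Nfkb2 over the 7 libraries was compared with that of 13402 protein-coding genes of at least 1 CPM, by the root-mean-square difference of log2 CPM after centring each gene. The nearest 5 were Siglecf (0.0512), Tlr2 (0.0575), Adar (0.0718), Pml (0.0731) and Pik3ap1 (0.0741). Relb was at place 82 from Nfkb2, at a difference of 0.134, and Nfkb1 at place 643. For Relb the nearest 5 were Tnfsf13b (0.0492), Tor3a (0.0622), Dck (0.0820), Plekho2 (0.0839) and Gmnn (0.0861). Each of these nearest genes, 5 for Nfkb2 and 5 for Relb, was higher in every ATG7 library than in any EYFP library, a feature that the measure itself favours.

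Relb, Nfkb2, Rel and Bcl3 are also expressed by lymphocytes and dendritic cells, and markers of those cells were therefore measured. In the list of 8 T and natural killer cell genes, 1 rose (Lck, 1.61 on the log2 scale, edgeR adjusted p = 0.0192), against 0.688% of all genes. In 7 of the 8 the groups did not overlap, against 11.2% of all genes. DESeq2 called 4 of the 8, against 3.61% of all genes in either direction. All 8 estimates were above 0, with a median log2 fold change of 1.63. The summed level of the list was 7.87 to 12.97 CPM in EYFP and 15.1 to 27.8 CPM in ATG7, so that every ATG7 library was above every EYFP library. Cd4, its most abundant gene, averaged 6.96 ± 1.07 CPM in EYFP against 8.21 ± 0.800 CPM in ATG7 (0.24, adjusted p = 0.581) and was the gene that overlapped. Cd3e, a defining T cell gene, stood between 0.177 and 0.540 CPM in EYFP and between 0.625 and 1.66 CPM in ATG7 (1.35, adjusted p = 0.276). In the dendritic cell list 1 of 8 rose, against 0.688% of all genes. That gene was Ccr7, a receptor of migrating dendritic cells. It stood between 0.820 and 1.84 CPM in EYFP and between 3.17 and 5.14 CPM in ATG7 (1.76, adjusted p = 0.0182). The sum of that list, 820.0 to 917.6 CPM in EYFP and 775.8 to 953.6 CPM in ATG7, was mostly Siglech, which microglia express. Flt3 and Zbtb46, which define dendritic cells, had log2 fold changes of 0.31 and 0.24 (adjusted p = 0.602 and 0.461). Ms4a1 and Pax5 were among the B cell genes too low to be tested. Of the 6 genes in that list, 3 were tested, led by Ighm (-0.03), and did not pass. The part of these cells in the levels of the NF-kB genes was not tested. Lck, Ccr7, Cd3e, Flt3 and Zbtb46 were singled out after their values were seen.

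Markers of the other cell types did not pass in any list with edgeR (0 to 2 genes of each list had an unadjusted p under 0.05), and DESeq2 called Plac8 of the monocyte list and Slc7a10 of the astrocyte list. The ranges of the summed levels overlapped between the groups for border macrophages (514.6 to 632.0 CPM in EYFP and 550.9 to 622.3 CPM in ATG7, led by Mrc1), monocytes and neutrophils (51.3 to 78.2 and 41.4 to 135.2, led by S100a9) and endothelial and mural cells (415.4 to 687.9 and 543.3 to 923.4, led by Flt1, with the estimates of all 7 markers above 0). They also overlapped for choroid plexus (54642 to 72083 and 46270 to 60963, with the estimates of all 7 markers below 0), neurons (21.4 to 43.3 and 27.6 to 29.5, led by Prox1), astrocytes (332.7 to 441.1 and 334.3 to 384.0, led by Slc1a3) and oligodendrocytes (177.2 to 435.4 and 204.8 to 292.0, led by Mbp). Of the neuron markers, 1 of 6 tested had an estimate above 0 (Prox1 at 0.25, median -0.48), and of the oligodendrocyte markers 1 of 6 (median -0.31). For astrocytes, for border macrophages and for monocytes and neutrophils it was 3 of 6. Genes induced by dissociation, which include immediate-early factors, were listed because Nfkbia, Nfkbiz and Tnfaip3 are known to respond to cell handling. None of the 20 genes of that list passed with any tool (1 at an unadjusted edgeR p under 0.05, median 0.20, Hsp90aa1 with the smallest p at an adjusted p of 0.266). Estimates were above 0 in 18 of the 20, against 49.2% of all genes. Their sum was 3691, 3893, 4571 and 5422 CPM in EYFP 1 to 4, and 5302, 5109 and 5087 CPM in ATG7. Every ATG7 library was above EYFP 1, EYFP 2 and EYFP 3 and below EYFP 4. The part of cell handling in the levels of the NF-kB genes was not tested.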

How the data were processed

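The authors deposited raw counts per gene for 7 libraries, whole numbers with no normalization. Per the submitters' processing notes, the tools were fastp 0.20.1, HISAT2 2.0.5 and featureCounts, and the build was mm10 (GRCm38). The annotation release, the strand setting and the handling of shared reads are not given in the sources used here. The 37 mitochondrial genes had 0 counts. All columns were matched to libraries by the labels' descriptions. Symbols and positions came from GENCODE M21 (GRCm38), which matched 55141 of 55401 identifiers.

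ATG7 was compared with EYFP over all genes in edgeR 4.0.16 under R 4.3.3 by its quasi-likelihood test (TMM factors, filterByExpr, robust dispersion, no covariate, 19199 genes), with Benjamini-Hochberg adjustment and a threshold of 0.05. Each SE was taken as the size of the log2 fold change over root F. CPM values were scaled by TMM factors, with a prior count of 2 on the log2 scale. Ratios used counts plus 0.5 and an exact permutation test on the absolute difference of group means. The labels do not say that libraries came from separate mice, so p-values measure the spread between these libraries, and counting floors cover counting error only. Same-group libraries differed by more than sampling noise (chi-square per degree of freedom of 20.98 to 45.4). Pathway and marker lists were described by counts and medians.

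Tested on simulated data for this comparison, the fit called 53.5% of 200 genes changed 1.5-fold among 18869 tested, and 11.6% of its calls were unchanged genes. Among 18870 tested, 82.5% of 200 genes changed 2-fold were called, and 9.84% of calls were unchanged genes. Both shares of unchanged genes were above the 0.05 that the threshold on adjusted p aims at.

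Alternatives were other scalings, other filters, DESeq2 1.42.0, limma-voom (limma 3.58.1), a replicate block and leaving out each library. The members and lists were chosen with earlier results of these data known. Beside the 10 members, the text names 8 kinases and adaptors, Atg7, up to 4 genes that passed or the gene with the smallest p in each pathway list, the most abundant gene of each marker list, and the 5 genes nearest in profile to Nfkb2 and to Relb. Other genes were chosen after their values were seen. Some genes of the lists are not reported here.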

Additional observations from a re-analysis of the deposited data

Results flagged for a closer look

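Of 52 values examined in EYFP by Dixon's gap test at the 95% level, 4 contained 1 library far from the other 3. By chance about 1 in 20 would, or 2.60 of 52. The log2 ratio of Relb to Rela in EYFP 3 was -2.70, against -2.28 to -2.24 in the other EYFP libraries. EYFP 3 was also set apart for Tor3a, at 94.5 CPM against 108.4 to 110.1 CPM, and for Plekho2, at 43.0 CPM against 47.5 to 48.5 CPM, both of which were chosen for profiles near that of Relb. Csf1 was at 47.6 CPM in EYFP 1, against 40.6 to 41.5 CPM in EYFP 2, 3 and 4.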

How the results depend on the processing

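The 145 genes that differed (91.0% higher) became 297 with no filter (78.8% higher), 585 with the DESeq2 Wald test (69.6% higher), 48 with libraries scaled to microglia markers, added after seeing the data, and 28 to 277 with 1 library left out. For Nfkb2 the log2 fold change ranged from 0.48 to 0.68 over the 16 alternatives, and it passed in 9. Bcl3 passed in 11, Relb in 2 (0.42 to 0.59), and the other 7 genes in none. Rela was above 0 in 11 of 16 and Nfkbia in 10 of 16. With 1 library left out, the difference in log2 ratio was 0.35 to 0.48 for Nfkb2 over Nfkb1. For Relb over Rela it was 0.38 to 0.55. The smallest exact permutation p possible was then 0.1 without an EYFP library and 0.0667 without an ATG7 library. With no library left out, a pseudocount of 5 gave differences of 0.40 and 0.49. The exact permutation p stayed at 0.0286, the smallest possible. Counts of these genes were 776 or more, so the larger pseudocount could change little.

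With the replicate number as a block, 0 genes passed (1256 at an unadjusted edgeR p under 0.05), with Bcl3 at 1.00 (edgeR adjusted p = 0.293) and Nfkb2 at 0.55 (0.379). DESeq2, without a block, called 585. EYFP 4 has no ATG7 library of its number, so the block took it out of the comparison. Leaving out EYFP 4 without a block gave 30 calls. Paired by number, the ratio differences were 0.41 and 0.53 (exact sign-flip p = 0.25, the smallest possible). Deviations from group means correlated at -0.0609, -0.182 and 0.0664 between same-numbered libraries and at -0.145 to 0.215 between the others. Not every library correlated best with its own number. With so few libraries, these correlations cannot decide whether same-numbered libraries were handled together. For the losses of calls the cause was not tested. Bcl3 rested on 113 to 363 counts per library and the other members on 776 or more.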
